A study of Mus musculus with 72 samples.

Results

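The livers of female mice on a misaligned schedule were compared with those of female control mice at the collection time labelled 20:00. The comparison rests on 6 whole-liver RNA libraries of the 72 in the series, 3 from misaligned and 3 from control females, chosen by the sex, treatment and time in their labels. The whole series holds both sexes, both treatments and 6 collection times, with 3 biological replicates in each of its 24 groups. All animals were wild type C57bl6 mice aged 8 to 16 weeks, kept with 12 h of light and 12 h of dark, free access to food and, from the first week of the schedule, a diet with 42% of calories from fat that control mice ate too. How the misaligned schedule was applied, and how the collection time relates to lights on, is not given in the sources used here. Messenger RNA was sequenced in pairs of 150 bp reads from strand-specific libraries.

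The liver keeps daily time with a loop of transcription factors. ARNTL (BMAL1) and CLOCK switch on genes through the E-box sequence, among them the period and cryptochrome genes whose proteins shut the pair down again, and the REV-ERB genes Nr1d1 and Nr1d2, which hold Arntl down. The PAR bZIP factors DBP, TEF and HLF pass the rhythm on through the D-box to genes of detoxification and lipid metabolism, and feeding time acts on the same liver genes through insulin, fatty acids and the protein-folding load of the endoplasmic reticulum (ER).

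Library totals for the 6 livers lay between 11813469 and 12294925 gene-assigned reads, and 18511 to 18712 genes had at least 1 read in a library. Hepatocyte markers such as Alb, Ttr and Apoa1 gave summed levels of 129900, 123800 and 128800 CPM (read counts relative to the scaled library total) in misaligned livers, against 126500, 130600 and 117500 CPM in control livers. Of 8 pancreas and gut markers 5 had no read in any of the 6 libraries, as did 4 of 8 skeletal muscle markers and 3 of 9 adipocyte markers. Misaligned replicate 1 stood apart in acute phase genes and control replicate 3 in blood genes, and values without them are given where they matter.

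No gene passed the adjusted threshold of 0.05 between misaligned and control females at 20:00, so that 0% of the 15066 genes tested were called. The smallest adjusted p was 0.541 (edgeR's quasi-likelihood test with Benjamini-Hochberg adjustment over all genes). At an unadjusted p under 0.05 the same test gave 507 genes, or 3.37%, of which 314 (2.08%) were higher and 193 (1.28%) lower in misaligned livers. DESeq2 had 510 genes at that unadjusted level and limma-voom 514, and each called 0. The smallest adjusted p was 0.0556 in DESeq2, close to the threshold, and 0.886 in limma-voom. The 3 misaligned livers all lay above the 3 control livers for 824 genes (5.47%) and all below them for 817 genes (5.42%), and these shares are the background for every list described here. The median standard error of a log2 difference was 0.242, and it was 0.631 at the 90th percentile. What follows gives levels and log2 differences, misaligned minus control, and the terms higher and lower describe those values and not calls.

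The core clock genes leaned low in misaligned livers. Of 19 tested genes in the clock loop and the PAR bZIP family, 15 had a negative log2 difference, 7 had all misaligned livers below all control livers and 0 had them above, and the list's median was -0.33 beside 0.01 over all genes. Leaving out any 1 of the 6 livers gave a median between -0.554 and -0.312. The -0.554 came without misaligned replicate 2, where 11 genes lay below and 2 above, beside 9.06% and 9.91% of all genes. Without misaligned replicate 1, 7 lay below and 1 above, where 10.9% of all genes lay below and 10.9% above. In male livers at 20:00 the same list had a median of 0.605. None of the 19 was called, and 4 lower genes and 1 higher gene had an unadjusted p under 0.05. Without misaligned replicate 1, that level was reached by 1 lower gene and 1 higher gene.

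The promoter windows of 3 of the 7 lower clock genes are shown because they hold recognition sequences of the loop itself. Each line gives 300 bases, from 250 before to 50 after the start of the gene, 5′ to 3′ on the gene's strand, from RefSeq on GRCm38.p6. Capitals mark CACGTG (the E-box) in Tef, at chr15:81802423-81802722 on the plus strand, and in Ciart, at chr3:95882179-95882478 on the minus strand. In Per3, at chr4:151044616-151044915 on the minus strand, capitals mark TTATGNAA (the D-box core).
Tef: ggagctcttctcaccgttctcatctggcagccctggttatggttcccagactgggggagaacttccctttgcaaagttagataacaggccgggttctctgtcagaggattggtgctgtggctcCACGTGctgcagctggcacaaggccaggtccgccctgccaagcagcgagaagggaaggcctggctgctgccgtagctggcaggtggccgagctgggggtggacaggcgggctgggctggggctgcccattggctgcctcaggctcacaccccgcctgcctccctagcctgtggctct
Ciart: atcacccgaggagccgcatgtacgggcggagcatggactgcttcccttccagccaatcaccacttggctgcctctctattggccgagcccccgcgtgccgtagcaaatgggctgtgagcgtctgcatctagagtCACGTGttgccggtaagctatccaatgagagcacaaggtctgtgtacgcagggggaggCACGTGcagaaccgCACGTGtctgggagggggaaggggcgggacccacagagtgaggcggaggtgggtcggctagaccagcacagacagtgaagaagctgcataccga
Per3: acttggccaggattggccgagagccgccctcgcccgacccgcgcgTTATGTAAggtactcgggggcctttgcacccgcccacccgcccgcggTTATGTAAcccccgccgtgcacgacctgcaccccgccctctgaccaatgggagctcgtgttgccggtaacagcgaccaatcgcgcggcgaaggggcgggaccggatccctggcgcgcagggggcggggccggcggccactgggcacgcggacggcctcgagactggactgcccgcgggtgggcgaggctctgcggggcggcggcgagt
On either strand, the E-box occurred in 6 of 23 windows of 17 matched clock genes (26.1%), against 7.15% of all 32851 windows. The D-box core occurred in 2 of the 23 (8.7%), those of Per1 and Per3, against 3.38% of all windows. Bhlhe41, Cry1 and Per1 carry the E-box too, yet for each of them, including Per1 with its D-box core, the groups overlapped. A match describes the letters in this window and not a bound site.

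Tef, a PAR bZIP activator on chromosome 15 (chr15:81802421-81826863), had 41.6, 51.2 and 35.1 CPM in misaligned livers, against 85.1, 77.4 and 81.5 CPM in control livers. All 3 misaligned values lay well under the lowest control value, and the log2 difference was -0.93 (SE 0.30, unadjusted p 0.002809 in edgeR's quasi-likelihood test, adjusted p 1). Per3, a period gene on chromosome 4 (chr4:151003652-151044665), had 2.77, 5.51 and 3.52 CPM in misaligned livers, against 10.7, 9.31 and 9.01 CPM in control livers. These groups did not overlap either, with a log2 difference of -1.29 (SE 0.50).

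Cry2, a cryptochrome repressor, averaged 36.6 ± 9.35 CPM in misaligned livers and 49.8 ± 1.06 CPM in control livers (SD, n = 3 each). Hlf, the third PAR bZIP factor, averaged 40.9 ± 1.73 CPM in misaligned livers and 51.4 ± 3.73 CPM in control livers. Both were lower in all misaligned livers, by log2 differences of -0.44 (SE 0.22) and -0.33 (SE 0.18). Dbp and Ciart, a repressor of the CLOCK-ARNTL pair, stood at low levels in both groups. Dbp had 1.30, 1.86 and 0.64 CPM in misaligned livers, against 2.65, 2.31 and 3.12 CPM in control livers. Ciart had 0.61, 0.32 and 1.04 CPM in misaligned livers, against 1.11, 1.32 and 1.94 CPM in control livers, a gap between the groups that is small beside their spread.

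The positive arm showed no such gap. Arntl had 37.1, 34.9 and 36.9 CPM in misaligned livers, against 36.2, 43.6 and 37.1 CPM in control livers, and its log2 difference was -0.10 (SE 0.55). Clock, Npas2 and Rora overlapped as well, as did Per1, Per2, Cry1, Nr1d2, Bhlhe40, Bhlhe41 and Nfil3. Nr1d1, the REV-ERBα gene, spread widely among misaligned livers, at 17.7, 2.51 and 31.4 CPM, against 4.62, 3.30 and 5.56 CPM in control livers. Replicates 1 and 3 were above every control and replicate 2 was below every control, so its log2 difference of 1.94 (SE 0.76, unadjusted p 0.01396 in edgeR's quasi-likelihood test) describes livers that did not move together.

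**Figure D1:**
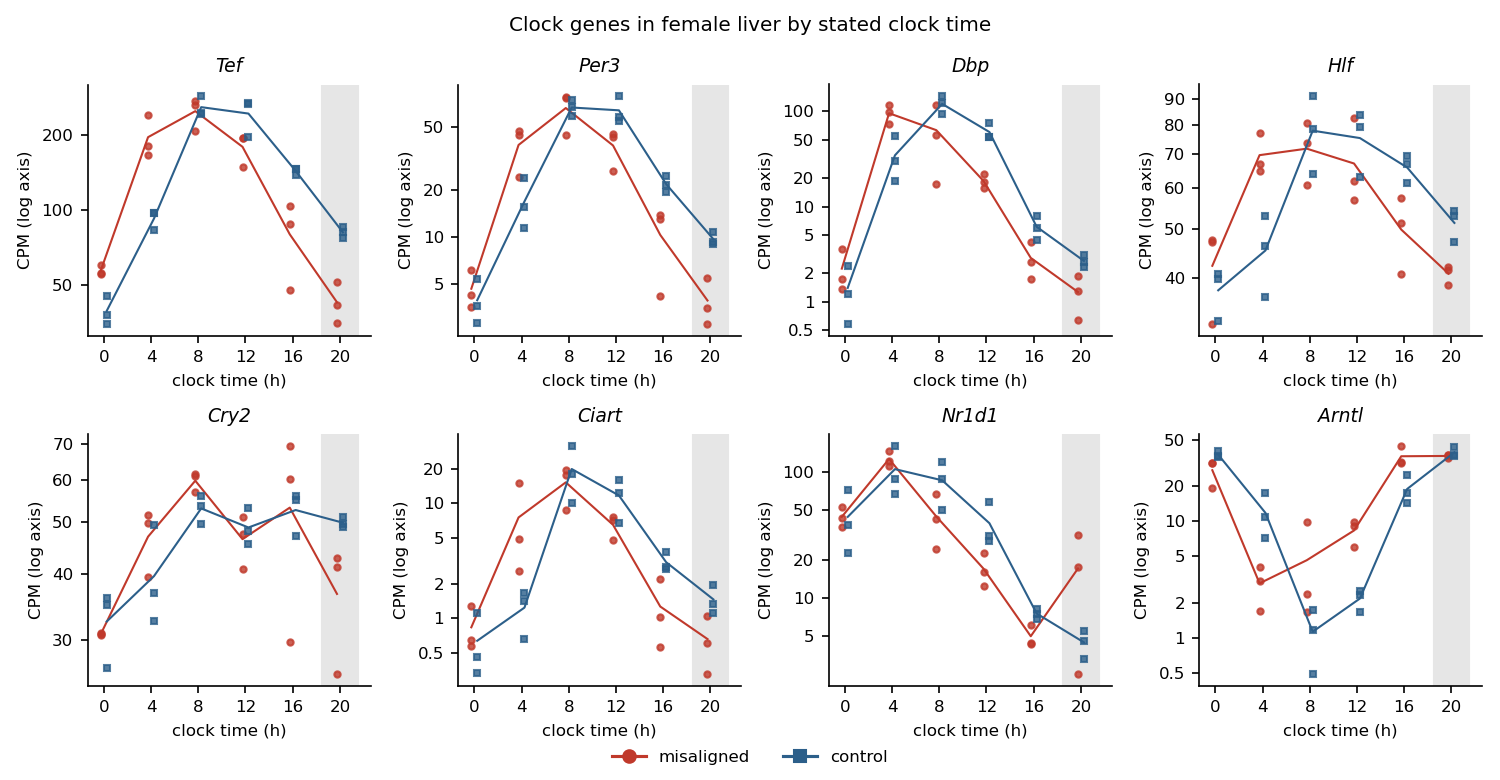
Levels of 8 clock genes in female livers over the 6 collection times, in CPM on a log axis, with misaligned livers as circles, control livers as squares, lines through the group means and 20:00 shaded. At 20:00 the circles for Tef, Per3, Dbp, Hlf, Cry2 and Ciart all lie below the squares, while those for Nr1d1 and Arntl do not.

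The difference at 20:00 can be set beside that at the other collection times. For Tef the female log2 difference was 0.54 at 00:00, 1.09 at 04:00, -0.05 at 08:00, -0.44 at 12:00 and -0.85 at 16:00, before -0.93 at 20:00. Per3 ran 0.24, 1.19, -0.01, -0.74 and -1.08 over the same 5 times and -1.29 at 20:00. The contrast of the 20:00 effect with the mean effect of the other 5 times called 0 genes (0%), Tef and Per3 included, while 561 genes had an unadjusted p under 0.05 in edgeR's quasi-likelihood test, whose lowest adjusted p was 0.98. DESeq2 found 570 genes and limma-voom 595 genes at that unadjusted level, and each called 0, with a smallest adjusted p of 0.114 in DESeq2 and 0.999 in limma-voom.

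The misaligned livers at 20:00 were also set against control livers of the next collection time, 00:00, a comparison that shares the misaligned libraries with the one above. Tef averaged 42.6 ± 8.13 CPM in misaligned livers at 20:00 and 39.4 ± 5.44 CPM in control livers at 00:00 (SD, n = 3 each), a log2 difference of 0.12, where it was -0.93 against control livers at 20:00. Per3 averaged 3.93 ± 1.42 CPM in misaligned livers at 20:00 and 3.95 ± 1.30 CPM in control livers at 00:00, a log2 difference of -0.0042. The values for Cry2 (0.17), Hlf (0.11), Dbp (-0.13) and Ciart (0.07) were likewise close to 0. Nr1d1 differed more, by -1.35 on the log2 scale, and averaged 17.2 ± 14.4 CPM in misaligned livers at 20:00 and 44.0 ± 25.1 CPM in control livers at 00:00. Over all genes this comparison called 0 (0%) and had 404 at an unadjusted p under 0.05 in edgeR's quasi-likelihood test, while DESeq2 called 2, Saa1 and Saa2, which were high in misaligned replicate 1 alone, and limma-voom called 0. A p that misses the threshold does not show that the groups were alike.

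Genes driven by the clock leaned the same way. Of 19 clock-controlled outputs, 7 lay below control in all misaligned livers and 0 above, with a median log2 difference of -0.23 in females and 0.667 in males. Usp2, a deubiquitinase with a strong daily rhythm, had 5.80, 4.62 and 5.29 CPM in misaligned livers, against 18.0, 7.99 and 9.94 CPM in control livers. Upp2, a uridine phosphorylase, had 81.0, 69.1 and 95.1 CPM in misaligned livers, against 141, 159 and 119 CPM in control livers. The others were the fatty acid elongase Elovl3, Noct (nocturnin), the cell cycle kinase Wee1, Nampt of NAD synthesis and the glycogen synthase Gys2. Gys2 had 114, 120 and 108 CPM in misaligned livers, against 142, 129 and 129 CPM in control livers, a narrow gap with a log2 difference of -0.23. None of the 19 had an unadjusted p under 0.05.

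The unfolded protein response is the set of chaperones, disulfide isomerases and degradation factors that a cell makes when proteins fold poorly in the ER, under the sensors IRE1, ATF6 and PERK. It leaned high in misaligned livers, where 23 of 30 tested genes had a positive log2 difference, 10 lay above control in all misaligned livers and 0 below. The list's median was 0.26, against 0.01 over all genes and -0.318 for the list in males. None was called, and 8 were higher at an unadjusted p under 0.05. The count depended on control replicate 3, the lowest liver for many of these genes. Without it 12 genes lay above and 6 below, where the shares over all genes were 15% and 15.4%, and 2 were higher at an unadjusted p under 0.05. Without control replicate 1 the count above was 16, where 9.19% of all genes lay above. Without control replicate 2 it was 10, beside 10.5% of all genes, and 4 had an unadjusted p under 0.05. The 3 fits that left out a misaligned liver gave 10 to 14 above, beside 8.56% to 10.9% of all genes. In those fits 5 to 7 reached that level.

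The ER stress element, CCAAT and CCACG around 9 free bases, was present in promoters of 9 of the 28 matched genes of this list (32.1%), against 0.119% of all windows, on either strand. The 9 were Calr, Canx, Creld2, Derl3, Dnajc3, Hsp90b1, Hspa5, Pdia6 and Syvn1. The windows of 3 genes whose groups did not overlap are shown because they share this element, with capitals marking it. They lie at chr19:6046326-6046625 (Syvn1), chr2:34771840-34772139 (Hspa5) and chr15:88819396-88819695 (Creld2), all on the plus strand of GRCm38.p6 and taken from RefSeq. In Creld2 the element reads on the other strand, so the capitals show its complement reversed.
Syvn1: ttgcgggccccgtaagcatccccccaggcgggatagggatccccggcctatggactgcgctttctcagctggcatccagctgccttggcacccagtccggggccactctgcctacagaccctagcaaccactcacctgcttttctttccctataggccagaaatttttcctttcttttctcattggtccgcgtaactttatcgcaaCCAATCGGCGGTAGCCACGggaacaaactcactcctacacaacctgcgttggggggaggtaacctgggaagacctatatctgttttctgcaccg
Hspa5: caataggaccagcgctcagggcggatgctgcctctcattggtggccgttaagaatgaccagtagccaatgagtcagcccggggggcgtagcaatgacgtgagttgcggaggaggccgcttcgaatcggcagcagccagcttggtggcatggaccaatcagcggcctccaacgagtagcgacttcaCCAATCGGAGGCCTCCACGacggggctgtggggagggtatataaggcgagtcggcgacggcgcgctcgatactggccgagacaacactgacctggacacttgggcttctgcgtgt
Creld2: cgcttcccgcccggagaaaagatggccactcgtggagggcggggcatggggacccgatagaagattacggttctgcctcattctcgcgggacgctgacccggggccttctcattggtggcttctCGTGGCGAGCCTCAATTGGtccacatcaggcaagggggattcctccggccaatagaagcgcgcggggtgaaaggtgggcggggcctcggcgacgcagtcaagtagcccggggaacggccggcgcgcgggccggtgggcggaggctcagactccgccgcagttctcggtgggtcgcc
Canx, Dnajc3, Hsp90b1, Pdia6 and Derl3 carry the element too, yet their groups overlapped.

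Hspa5, which encodes BiP, the main chaperone of the ER, had 889, 841 and 899 CPM in misaligned livers, against 639, 603 and 489 CPM in control livers. The groups were well apart, with a log2 difference of 0.60 (SE 0.25, unadjusted p 0.0206 in edgeR's quasi-likelihood test, adjusted p 1). Manf, a secreted factor of the ER stress response, had 90.5, 73.2 and 98.3 CPM in misaligned livers, against 55.7, 54.0 and 40.8 CPM in control livers, a log2 difference of 0.80 (SE 0.32). Syvn1, the ubiquitin ligase HRD1 that marks misfolded ER proteins for degradation, had 129, 111 and 114 CPM in misaligned livers, against 86.6, 53.2 and 73.3 CPM in control livers, a log2 difference of 0.73 (SE 0.29). Xbp1, the transcription factor activated by IRE1, had 215, 197 and 188 CPM in misaligned livers, against 154, 168 and 139 CPM in control livers. Its difference was smaller, 0.38 on the log2 scale (SE 0.15), with no overlap.

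The ER folding genes Hyou1, Creld2 and Sdf2l1, the DnaJ gene Dnajb9, the calcium-binding chaperone Calr and Ddit3, which encodes CHOP, were also above control in all misaligned livers, with log2 differences from 0.24 for Calr to 0.78 for Creld2. On the PERK side of the response, Atf4, Trib3, Asns, Chac1 and Ppp1r15a overlapped between groups while Ddit3 did not. Herpud1, a degradation factor, ranged widely in both, at 481, 195 and 303 CPM in misaligned livers, against 521, 304 and 170 CPM in control livers. Intronic reads, which come from RNA not yet spliced, leaned the same way for the list, with a median log2 difference of 0.592 over 25 genes. Syvn1 had 132, 106 and 30 intronic reads in misaligned livers, against 29, 24 and 37 in control livers, so that misaligned replicate 3 was within the control range there.

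**Figure D2:**
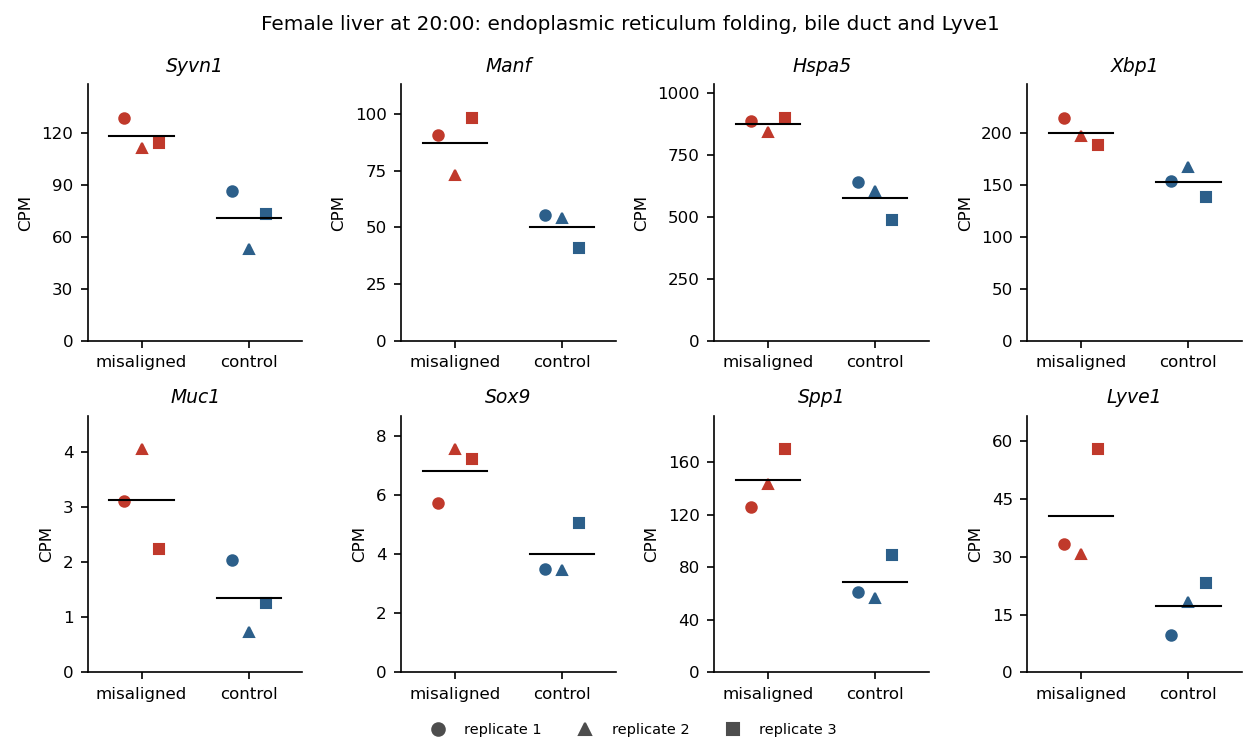
Levels of 4 genes of the unfolded protein response (Syvn1, Manf, Hspa5, Xbp1), 3 bile duct markers (Muc1, Sox9, Spp1) and the endothelial gene Lyve1 in each of the 6 female livers at 20:00, in CPM, misaligned left of control, with a symbol for each replicate number and a bar at the group mean. For all 8 genes the 3 misaligned livers lie above the 3 control livers.

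Fatty acid oxidation in the liver is set by PPARα, a nuclear receptor that responds to fatty acids and is itself rhythmic. Its targets leaned low: 29 of 34 tested genes had a negative log2 difference, 13 lay below control in all misaligned livers and 0 above, and the median was -0.24 in females and 0.255 in males. Leaving out a liver gave 13 to 20 genes below, the 20 without misaligned replicate 1, where 10.9% of all genes lay below. The list's levels summed to 20730, 18960 and 19040 CPM in misaligned livers, against 25720, 22860 and 22280 CPM in control livers. The groups did not overlap, and a two-sided exact permutation test over the 6 livers gave p = 0.1, the smallest it can give. That p was not particular to this list, since the sums of endothelial markers and of skeletal muscle markers, among others, reached it too. Fabp1, the member with the highest level, overlapped between the groups.

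Acsl1, which activates long-chain fatty acids, had 880, 820 and 726 CPM in misaligned livers, against 1216, 1236 and 937 CPM in control livers, a log2 difference of -0.48 (SE 0.24). Cpt1a, the gate of fatty acid entry into mitochondria, had 377, 297 and 290 CPM in misaligned livers, against 406, 431 and 387 CPM in control livers. Both genes were lower in every misaligned liver, though for Cpt1a replicate 1 lay just under the lowest control. Acot4, a peroxisomal thioesterase, had 116, 102 and 139 CPM in misaligned livers, against 231, 176 and 142 CPM in control livers, a log2 difference of -0.62 (SE 0.28). Cyp4a10, an ω-hydroxylase and a classical PPARα target, had 823, 651 and 776 CPM in misaligned livers, against 1365, 1079 and 1279 CPM in control livers. That gap was clear in every liver, with a log2 difference of -0.73, but its standard error over the series was 0.45. The peroxisomal Ehhadh, the mitochondrial Cpt2, Acadl and Acaa2, the thioesterases Acot1 and Acot3, Vnn1 and the fatty acid transporter Cd36 were also below, by as little as -0.11 for Cd36. Acot1, Acot3 and Acot4 are close paralogs, as are the Cyp4a genes, so reads may be shared among them.

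Ppara itself overlapped, at 30.9, 20.7 and 18.6 CPM in misaligned livers, against 77.6, 72.1 and 18.6 CPM in control livers. Fgf21, a fasting hormone that PPARα drives, leaned the other way, with 8.48, 3.73 and 5.29 CPM in misaligned livers, against 3.93, 2.39 and 1.60 CPM in control livers. Its groups overlapped at a single liver, and its log2 difference was 1.14 (SE 0.57). Fatty acid and triglyceride synthesis had a median of -0.0314 over 23 genes and 0 genes apart in either direction. This rested on misaligned replicate 1, without which 8 of the 23 lay above control (34.8%, beside 10.9% of all genes) and the median was 0.251, and without control replicate 3 the median was 0.15 with 2 genes below.

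Genes of xenobiotic metabolism, the oxidation, conjugation and hydrolysis of foreign compounds, were lower in 24 of 26 tested cases by the sign of the log2 difference, with a median of -0.33. In 7 of them all misaligned livers lay below all controls, and the count without any 1 liver was 7 to 12, the 12 without misaligned replicate 1 beside 10.9% of all genes and 11 without control replicate 2 beside 9.89%. Ces2c, a carboxylesterase, had 8.83, 19.5 and 12.7 CPM in misaligned livers, against 24.4, 31.8 and 44.0 CPM in control livers, a log2 difference of -1.29 (SE 0.51). Aldh1a1, a retinal dehydrogenase, had 1399, 1353 and 1242 CPM in misaligned livers, against 1989, 1679 and 2168 CPM in control livers, a log2 difference of -0.55 (SE 0.27). Cyp1a2, a cytochrome P450 of central hepatocytes, had 134, 187 and 162 CPM in misaligned livers, against 265, 251 and 292 CPM in control livers. The control livers of Cyp1a2 were all above the highest misaligned one, with a log2 difference of -0.74 (SE 0.43 over the series). The glutathione transferases Gsta2 and Gsta4 and the carboxylesterases Ces1g and Ces2a were the other members below.

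Gluconeogenesis and amino acid catabolism together gave 4 of 22 genes below and 1 above, beside 5.42% and 5.47% of all genes. The count below was 9 without misaligned replicate 3 and 7 without control replicate 2, where 8.32% and 9.89% of all genes lay below. Tdo2, which opens tryptophan breakdown, had 540, 563 and 556 CPM in misaligned livers, against 781, 782 and 692 CPM in control livers. The tyrosine enzyme Hpd and the urea cycle enzyme Otc were also below, and the gluconeogenic Fbp1 was above by 0.13 on the log2 scale. Of 28 genes biased to female liver 5 lay below, among them the cytochromes P450 Cyp2b9 and Cyp2b13 and the transcription factor Cux2, with a median of -0.42. Of 24 genes biased to male liver 3 lay below, with a median of -0.306. Without control replicate 3 the counts were 14 of the 28 and 11 of the 24, beside 15.4% of all genes. Car3, an abundant carbonic anhydrase that hepatocytes and adipocytes share, had 2111, 2592 and 2007 CPM in misaligned livers, against 3748, 3659 and 4034 CPM in control livers.

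**Figure D3:**
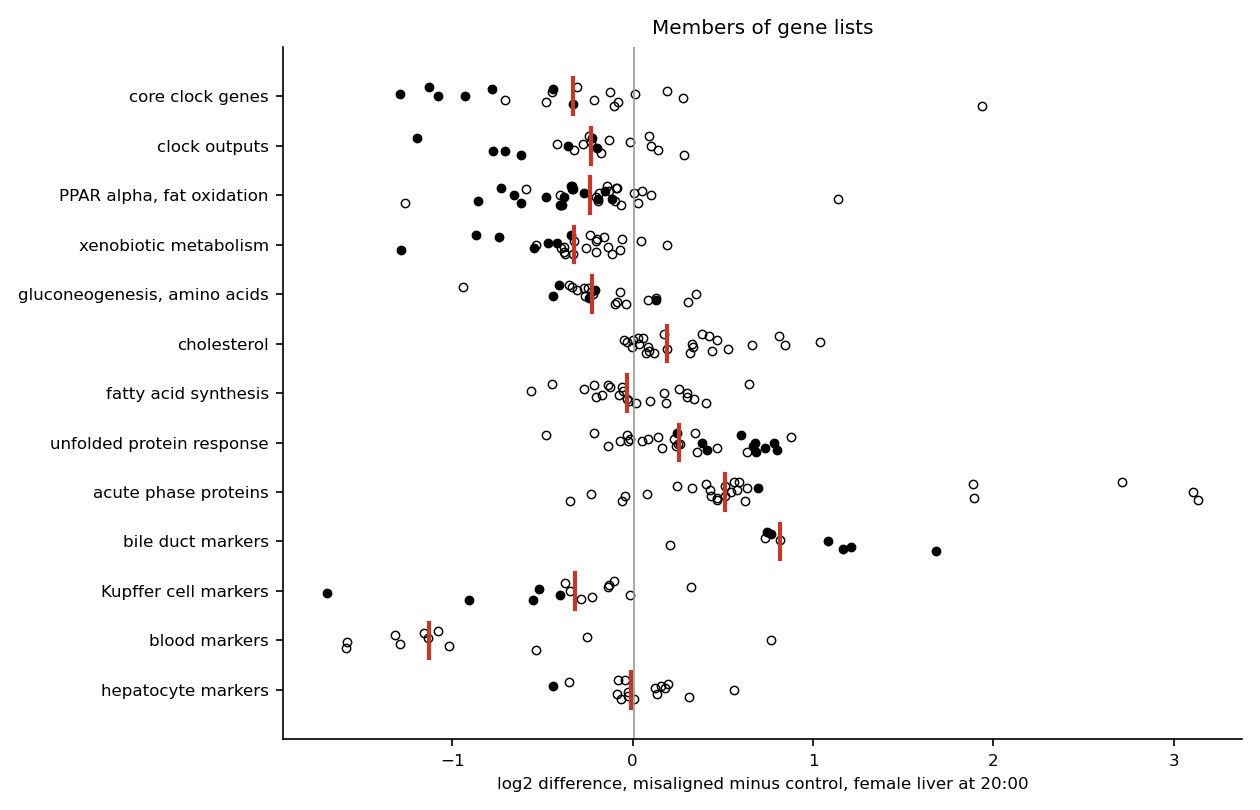
Log2 difference, misaligned minus control, of each tested member of 13 gene lists in female livers at 20:00, with filled points where the groups did not overlap, a red bar at the list's median and a grey line at the median of all genes tested. The clock, PPARα and xenobiotic lists lie mostly left of the grey line and the unfolded protein response and bile duct lists mostly right of it.

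Acute phase proteins are the plasma proteins that hepatocytes raise under interleukin 6 during inflammation. In misaligned replicate 1 several of them stood far above every other liver. Saa1, a serum amyloid, had 2004, 64.0 and 71.6 CPM in misaligned livers, against 59.0, 85.5 and 104 CPM in control livers. Lcn2, an iron-binding lipocalin, had 593, 28.1 and 36.6 CPM in misaligned livers, against 22.0, 27.2 and 51.1 CPM in control livers. In both genes replicate 1 was high alone and misaligned replicates 2 and 3 lay within the range of the controls. The fibrinogen chain Fga had 9531, 4710 and 5136 CPM in misaligned livers, against 4415, 4870 and 3838 CPM in control livers.

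Over the list's 26 genes, 13 were higher at an unadjusted p under 0.05 and 0 lower, with a median log2 difference of 0.51. Without misaligned replicate 1, 0 had an unadjusted p under 0.05 in either direction and the median was -0.0533. The summed level was 59120, 27880 and 27730 CPM in misaligned livers, against 27220, 27040 and 24860 CPM in control livers. Saa1 had a log2 difference of 3.11 (SE 0.74, adjusted p 0.5605 in edgeR's quasi-likelihood test with Benjamini-Hochberg adjustment). It was -0.502 in a fit without replicate 1 of every group in the series. Serpina3n, a serine protease inhibitor, was the list's only gene with all misaligned livers above control, at 934, 358 and 374 CPM in misaligned livers, against 320, 351 and 358 CPM in control livers. The count of such genes was 3 to 5 without any 1 liver other than control replicate 1, beside 8.56% to 15% of all genes. Without control replicate 1 it was 1, beside 9.19% of all genes. For Serpina3n, outside replicate 1 the lowest misaligned value and the highest control value were nearly equal.

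Further genes were high in misaligned replicate 1 alone. The metallothionein Mt2 had 158, 7.38 and 14.8 CPM in misaligned livers, against 22.3, 17.9 and 16.2 CPM in control livers. Prtn3, a protease of neutrophil granules, had 8.57, 0.08 and 0.48 CPM in misaligned livers, against 0.09, 0.16 and 0.08 CPM in control livers. Neutrophil markers summed to 16.0, 8.03 and 5.85 CPM in misaligned livers, against 6.16, 6.26 and 10.4 CPM in control livers. Hamp, which encodes the iron hormone hepcidin, went against the list, with 13.2, 300 and 235 CPM in misaligned livers, against 102, 14.8 and 31.8 CPM in control livers. Replicate 1 was the lowest of the 6 livers for Hamp, as it was for its relative Hamp2 at 91.0 CPM, though reads may be shared between these near-identical genes. The part of the neutrophil markers in the acute phase values was not tested.

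**Figure D4:**
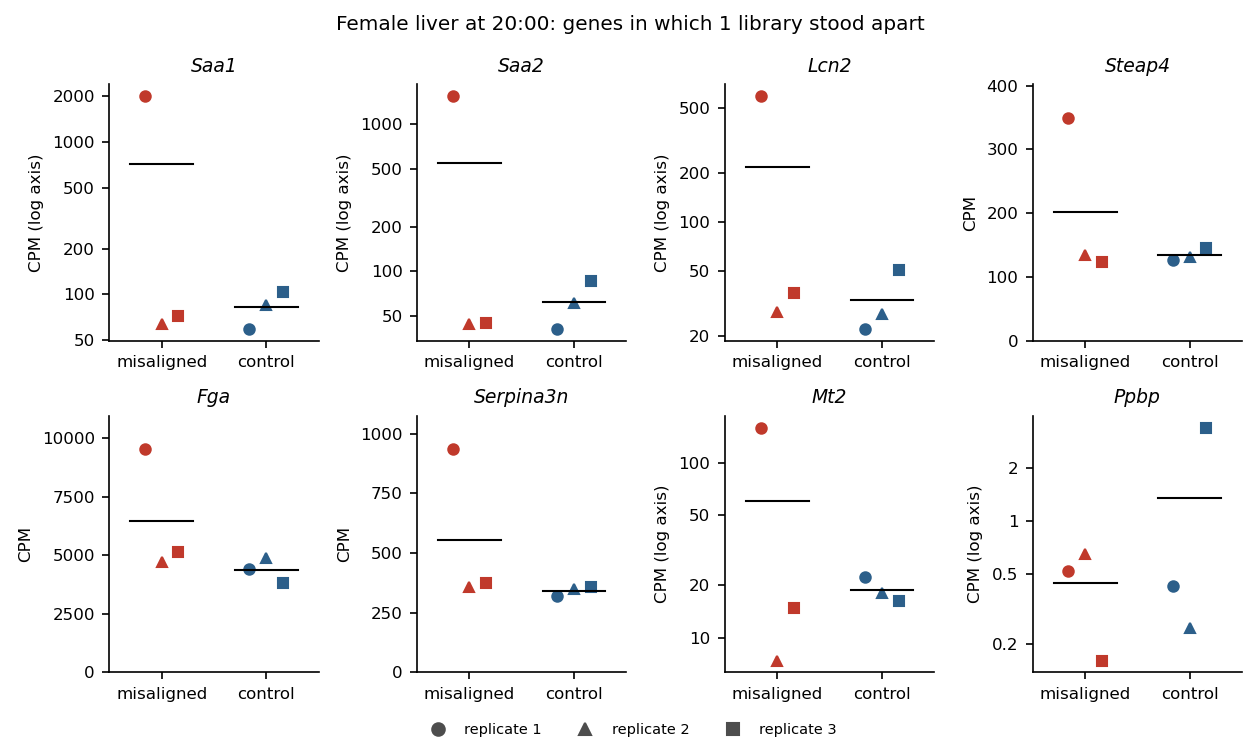
Levels of 8 genes in each of the 6 female livers at 20:00 in CPM (log axis where labelled), misaligned left of control, with circles, triangles and squares for replicates 1, 2 and 3 and a bar at the group mean. Misaligned replicate 1 stands alone at the top for Saa1 (2004 CPM), Saa2, Lcn2, Steap4, Fga, Serpina3n and Mt2, and control replicate 3 does so for the platelet gene Ppbp (3.37 CPM).

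Markers of bile duct cells, which line the ducts that drain bile, were higher in misaligned livers for all 9 genes by sign, and 6 of the 9 lay above control in all misaligned livers. The median was 0.82 in females and -1.31 in males. Their summed level was 168, 195.7 and 222.9 CPM in misaligned livers, against 96.9, 85.6 and 125 CPM in control livers, with no overlap. A two-sided exact permutation test gave p = 0.1, the smallest it can give and one that other lists reached too. Spp1 (osteopontin) made up most of the sum, at 126, 143 and 170 CPM in misaligned livers, against 61.0, 57.0 and 89.2 CPM in control livers. Sox9, a transcription factor of duct cells, had 5.71, 7.54 and 7.21 CPM in misaligned livers, against 3.51, 3.46 and 5.05 CPM in control livers. The mucin gene Muc1 had 3.12, 4.05 and 2.24 CPM in misaligned livers, against 2.05, 0.74 and 1.26 CPM in control livers, and had the list's only unadjusted p under 0.05 (0.02369 in edgeR's quasi-likelihood test). Cftr, Tspan8 and Krt19 were above too, while Krt7 and Epcam overlapped. The count above was 6 to 8 of 9 when any 1 liver was left out, beside 8.56% to 15% of all genes. The median was 1.23 without control replicate 1. In whole liver, more cells of a type and more RNA per cell cannot be told apart.

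Kupffer cell and macrophage markers leaned low. Marco, Timd4, Cd5l, Vsig4 and Adgre1 lay below control in all misaligned livers, 5 of 14 genes, and the list's summed level was 952, 1012 and 709 CPM in misaligned livers, against 1162, 1044 and 1131 CPM in control livers. Without control replicate 2 the count was 9 of 14, beside 9.89% of all genes. Misaligned replicate 3 was the lowest, with 0.48 CPM of Marco, a scavenger receptor, where the other misaligned livers had 4.67 and 7.46 CPM and the controls 13.4, 7.83 and 19.6 CPM. Blood and platelet markers summed to 154, 389 and 70.6 CPM in misaligned livers, against 270, 201 and 716 CPM in control livers, so control replicate 3 was high. The blood list had a median log2 difference of -1.13 with 0 of 11 genes apart. The median was -0.218 without that liver and -0.637 without misaligned replicate 3. Without misaligned replicate 2 it was -2.19, and 6 of the 11 lay below, beside 9.06% of all genes. In that fit 5 were lower at an unadjusted p under 0.05 in edgeR's quasi-likelihood test. Of the endothelial markers, Lyve1, a hyaluronan receptor of sinusoids and lymphatic vessels, had 33.3, 30.6 and 57.9 CPM in misaligned livers, against 9.75, 18.4 and 23.3 CPM in control livers. No other endothelial marker on the list was above control in all misaligned livers, and the list's median was -0.14. Without control replicate 3, 6 of 12 endothelial markers lay below, beside 15.4% of all genes. Without misaligned replicate 2, 4 did, beside 9.06% of all genes, where 1 did with all livers. The part of these cell types in the gene differences was not tested.

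Genes of the interferon response and antigen processing had 4 of 37 members below and 0 above, beside 5.42% and 5.47% of all genes. The count below was 9 without misaligned replicate 2 (24.3%, beside 9.06% of all genes) and 8 without control replicate 3 (21.6%, beside 15.4%). Without misaligned replicate 3 there were 5 above (13.5%, beside 8.56%) and 4 below (10.8%, beside 8.32%). Ifit3, an antiviral protein, had 15.1, 13.7 and 12.3 CPM in misaligned livers, against 21.4, 24.6 and 22.3 CPM in control livers, a log2 difference of -0.74 (SE 0.28). Oas1a, Cxcl9 and Cxcl10 were the other 3. Among 28 cell division genes 3 were above and 2 below, while the counts were 3 to 5 above and 2 to 6 below without any 1 liver. The 6 came without control replicate 1, where 8.85% of all genes lay below. Ccnd1, the cyclin of the G1 phase, had 65.6, 57.9 and 90.7 CPM in misaligned livers, against 29.2, 28.3 and 40.8 CPM in control livers, a log2 difference of 1.12 (SE 0.53). Tk1, the thymidine kinase of S phase, had 17.5, 22.0 and 18.7 CPM in misaligned livers, against 43.1, 32.6 and 26.9 CPM in control livers. Ccnd1 was higher and Tk1 lower in every misaligned liver.

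Outside these lists, the smallest unadjusted p among genes with at least 2 CPM belonged to Tmem125, which encodes a transmembrane protein (chr4:118540941-118544044). Tmem125 had 8.74, 7.21 and 6.57 CPM in misaligned livers, against 4.53, 4.28 and 4.55 CPM in control livers. The control livers were close to each other and all misaligned livers were above them, with a log2 difference of 0.75 (SE 0.17, unadjusted p 7.18e-05, adjusted p 0.541 in edgeR's quasi-likelihood test). Tppp, Pbx3, Mettl15, Edem2, which helps clear misfolded proteins from the ER, Serpina7, which encodes thyroxine-binding globulin, Tmem218 and Rpl36al were also above in all misaligned livers. Serpina7 had 145.9, 50.8 and 45.2 CPM in misaligned livers, against 14.5, 43.9 and 34.8 CPM in control livers. Outside misaligned replicate 1 its groups thus nearly met. On the lower side, Sord, the sorbitol dehydrogenase, had 1345, 1296 and 1164 CPM in misaligned livers, against 1687, 1524 and 1838 CPM in control livers. Mme, the membrane protease neprilysin, had 47.2, 77.5 and 59.3 CPM in misaligned livers, against 95.2, 104 and 78.9 CPM in control livers, where the groups nearly met. Aldh3a2, the fatty aldehyde dehydrogenase, averaged 615 ± 34.3 CPM in misaligned livers and 869 ± 83.7 CPM in control livers (SD, n = 3 each).

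A few genes of low level were present in 1 group and nearly absent in the other. Capn11, a calpain protease known from testis, had 1, 0 and 0 reads in misaligned livers, against 35, 31 and 42 reads in control livers. Its intronic reads were 0, 0 and 0 in misaligned livers, against 25, 26 and 36 in control livers. The level was not steady in other groups, with 0, 0.08 and 3.26 CPM in the 3 female control livers at 00:00. Rec114, a factor of meiotic recombination, had 0, 0 and 1 reads in misaligned livers, against 13, 21 and 12 reads in control livers. Ctxn1, which encodes cortexin, went the other way, with 9, 16 and 16 reads in misaligned livers, against 2, 3 and 1 reads in control livers (unadjusted p 3.619e-05, adjusted p 0.541 in edgeR's quasi-likelihood test).

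Intronic reads gave the single call among the female tests at 20:00. Of 9868 genes tested on summed intron counts, 1 passed (0.0101%), Rpl7a, a ribosomal protein gene. The call was lost without control replicate 1 or control replicate 2, and held without control replicate 3 or any 1 misaligned liver. Rpl7a had 38, 52 and 41 intronic reads in misaligned livers, against 9, 9 and 16 in control livers, a log2 difference of 1.91 (SE 0.32, adjusted p 0.0009221 in edgeR's quasi-likelihood test with Benjamini-Hochberg adjustment). Its exonic level did not share the gap, at 318, 288 and 323 CPM in misaligned livers, against 316, 299 and 284 CPM in control livers. At the level of introns, 395 genes had an unadjusted p under 0.05 in that test. Introns of Rpl7a host small nucleolar RNA genes, and the part of those RNAs in the intronic reads was not tested. Tef had 1, 1 and 4 intronic reads in misaligned livers, against 8, 15 and 2 in control livers, and Per3 had 2, 7 and 5, against 17, 18 and 11 in control livers.

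The effect of misalignment at 20:00 differed between the sexes for 94 genes (0.624%) by a test of the difference itself, female effect minus male effect, in edgeR's quasi-likelihood test with Benjamini-Hochberg adjustment. The difference was positive for 37 (0.246%) and negative for 57 (0.378%), or 60.6% negative. Scaling by total counts instead shifted the median of all genes by 0.291 on the log2 scale and gave 361 positive and 68 negative calls, 15.9% negative. In all 94 the log2 difference had opposite signs in females and males. Choosing genes by this difference favours opposite signs, so the pattern is no separate evidence for either sex. The male difference was the larger in 89 of the 94, with a median absolute log2 difference of 0.39 in females and 1.16 in males, and in males the comparison at 20:00 called 1993 genes (13.2%), 91 of the 94 among them. An unadjusted p under 0.05 was reached in females by 32 of the 94. The count of 94 moved with single livers. Among males it was 6 without control replicate 2, 15 without misaligned replicate 3, 54 without control replicate 1 and 321 without control replicate 3. Among females it was 12 without misaligned replicate 1, 29 without misaligned replicate 3, 33 without control replicate 1, 49 without control replicate 3 and 146 without control replicate 2. Leaving out a replicate number from every group at once gave 1 without number 1, 0 without number 2 and 28 without number 3.

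Tef had the smallest adjusted p of this contrast, with a difference between the sexes of -2.77 on the log2 scale (adjusted p 0.0003963 in edgeR's quasi-likelihood test). Female livers had the values above, and in males Tef had 228, 111 and 151 CPM in misaligned livers, against 51.9, 45.9 and 39.6 CPM in control livers. Tef was thus lower in every misaligned female and higher in every misaligned male. Per3 differed by -3.81 (adjusted p 0.004659 in the same edgeR test), with 36.9, 14.5 and 19.1 CPM in misaligned males, against 5.75, 4.01 and 2.53 CPM in control males. Dbp differed by -5.52 (adjusted p 0.04783 in that edgeR test), with 107, 6.63 and 12.5 CPM in misaligned males, against 2.27, 1.89 and 1.63 CPM in control males. Of 19 core clock genes 3 were called, all negative, and the clock outputs Usp2, Gys2, Lipe and Por were called negative as well.

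Among metabolic genes, Cyp2a5, a cytochrome P450 with a daily rhythm, differed by -3.39 (adjusted p 0.009312 in edgeR's quasi-likelihood test). Cyp2a5 had 268, 425 and 320 CPM in misaligned females, against 643, 520 and 834 CPM in control females, and 1122, 680 and 596 CPM in misaligned males, against 140, 114 and 198 CPM in control males. Misaligned and control livers did not overlap in either sex. The PPARα list gave 3 negative calls, Acot3, Acot4 and the fatty acid binding protein gene Fabp1, and xenobiotic metabolism gave 3, Ces2c, Cyp1a2 and the P450 reductase gene Por. On the positive side, Tspyl2, an X-linked nucleosome assembly gene, differed by 2.04 (adjusted p 0.000418 in edgeR's test), with 13.0, 9.73 and 13.2 CPM in misaligned females, against 7.69, 6.51 and 8.84 CPM in control females. In males Tspyl2 had 3.66, 4.66 and 4.98 CPM in misaligned livers, against 10.1, 13.1 and 11.9 CPM in control livers. Eif1a, a translation initiation factor gene, differed by 1.18 (adjusted p 0.0004669 in edgeR's test), and its female groups overlapped, at 76.8, 50.7 and 53.5 CPM in misaligned livers, against 43.6, 52.6 and 43.9 CPM in control livers.

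Acute phase genes gave 3 positive calls, Saa1, Cp and Steap4, and in females these rest on misaligned replicate 1. Steap4, a metalloreductase, differed by 1.88 (adjusted p 0.00685 in edgeR's quasi-likelihood test), with 349, 135 and 124 CPM in misaligned females, against 127, 131 and 145 CPM in control females, and 145, 123 and 133 CPM in misaligned males, against 304, 357 and 320 CPM in control males. Without female misaligned replicate 1 the contrast called 12 genes, all 12 among the 94. Lyve1 differed by 2.43 (adjusted p 0.0267 in edgeR's test), higher in misaligned females and lower in misaligned males, where it had 15.5, 17.0 and 12.4 CPM in misaligned livers, against 35.9, 46.4 and 19.5 CPM in control livers. No gene of the unfolded protein response was called in this contrast, though Manf had an adjusted p of 0.05806 and Hspa5 of 0.0625 in edgeR's test.

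**Figure D5:**
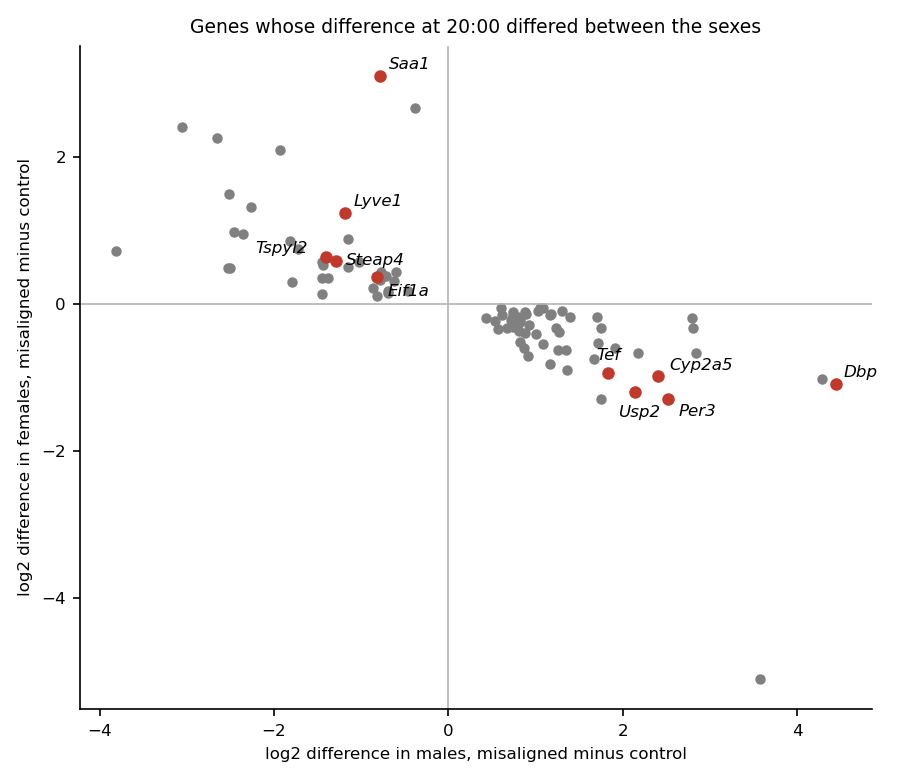
Log2 difference, misaligned minus control at 20:00, in females (vertical axis) against males (horizontal axis) for the 94 genes whose effect differed between the sexes. Every point lies in a quadrant of opposite signs, a pattern that choosing genes by this difference favours. The spread along the male axis is wider than along the female axis, with median absolute differences of 0.39 in females and 1.16 in males.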

How the data were processed

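Whole-liver messenger RNA of 72 mice was sequenced, and the submitters' processing notes name STAR 2.6.0c and the GRCm38 build. The authors deposited tables of whole-number counts per gene, exon and intron, sense and antisense, each in a MIN and a MAX version. How reads that fit several genes were treated is not given in the sources used here. The MIN sense gene counts were used, with the MAX version as an alternative, and 0 sample columns were left without a sample. Library totals were nearly equal over the series (11551524 to 12529963 reads in genes), so they carry little information on original depth.

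Genes with low counts were removed with edgeR's filterByExpr over the 24 groups, which kept 15066 of 27846 genes. The counts were scaled by TMM and fitted with edgeR's robust quasi-likelihood model, 1 mean per group over all 72 libraries (48 residual degrees of freedom), with Benjamini-Hochberg adjustment over all genes tested and a threshold of 0.05. Fitting all groups lets the 6 livers borrow the spread of the series. Intron counts were summed per gene over 157636 introns that do not overlap another kept intron, and 9868 genes were tested. CPM are scaled by TMM. No 2 replicates of a compared group agreed within sampling noise. The labels call the replicates biological and do not name animals.

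Genes were named by rule: the 12 in each direction with the smallest unadjusted p and at least 2 CPM, since none was called, all core clock genes, up to 3 members of each other list and up to 6 genes of each other contrast. A few list members are counted in their lists but not reported here by name. Other list members are named where their groups did not overlap, and Capn11, Rec114 and Ctxn1 were picked for their other contrasts or after their values were seen. The comparison and the 38 lists (649 genes, 8 not found) were chosen with earlier results of these data known, and the ER stress element was added after seeing them. Promoters and gene spans come from RefSeq on GRCm38.p6 and GENCODE on GRCm38. The procedure was tested on simulated data. Versions were R 4.3.3, edgeR 4.0.16, limma 3.58.1, DESeq2 1.42.0, Python 3.11.15 and matplotlib 3.10.9.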

Additional observations from a re-analysis of the deposited data

Results flagged for a closer look

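The effect of misalignment at 20:00 differed between female and male livers in a test of the difference itself for 94 genes, and these results are listed for that reason. The difference, female effect minus male effect on the log2 scale, was -2.77 for Tef, 2.04 for Tspyl2, 1.18 for Eif1a, -3.81 for Per3, 1.88 for Steap4 and -3.39 for Cyp2a5. Of these 6 genes, Tef, Per3 and Cyp2a5 were lower in every misaligned female and higher in every misaligned male, and Tspyl2 showed the reverse pattern in every liver. Eif1a and Steap4 overlapped between the female groups, and Steap4 in females was high in misaligned replicate 1 alone.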

How the results depend on the processing

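The count of 0 genes between misaligned and control females at 20:00 held under the other settings tried and in the fits without a liver (0 to 0), with 1 exception. This was a fit of the 6 compared livers only, which called 1 gene, Capn11 (log2 difference -6.32, adjusted p 0.0164 in edgeR's quasi-likelihood test). The contrast with the other 5 times gave 0 throughout (0 to 0 without a liver). The difference between the sexes was unstable in its count: it was 94, and 150 with RLE size factors, 429 with total counts, 40 without a filter, 145 with a mean of at least 5 CPM, 58 with limma-voom, 431 with DESeq2, 184 with MAX counts and 175 with the newer edgeR dispersion estimate, an alternative chosen after seeing the data because the planned older one is the default here. Without a liver or a replicate number it ran from 0 to 321. Against control livers at 00:00, DESeq2 called 2 genes, Saa1 and Saa2, and fits without a liver 0 to 2. Intronic counts gave 23 genes without a filter, 2 with DESeq2, 2 with the compared livers only and 0 to 4 without a liver. The causes were not tested.

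Replicate numbers did not pair the livers: correlations of deviations between same-numbered misaligned and control livers were 0.0848, -0.126 and 0.06. With replicate number as a block the counts were 0 at 20:00, 0 against the other times, 62 between the sexes (all 62 among the 94), 0 against 00:00 and 1 on introns.

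Of the log2 differences of named genes under the alternatives, 2836 stayed within their error and 78 moved beyond it. The sign turned in 18, all of them without a liver or a replicate number. Sign changes were counted only where the main value exceeded its standard error or a call was made. For the genes whose sign turned, the ranges without a liver or a replicate number were -0.502 to 3.83 for Saa1, -0.746 to 3.97 for Saa2, -0.294 to 3.65 for Lcn2, -0.759 to 2.18 for Mt2, -0.755 to 1.6 for Mt1, -0.116 to 0.895 for Steap4, -0.0652 to 1.73 for S100a9, -0.0115 to 0.529 for Foxa2, -1.21 to 0.0111 for Lpin2, -2.47 to 0.775 for Ppbp and -2.57 to 0.0848 for Hbb-bt.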

Other observations

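Cholesterol synthesis and uptake genes had positive log2 differences in 22 of 25 cases in female livers at 20:00, with a median of 0.19 in females and 0.852 in males, but 0 of the 25 separated the groups. Without misaligned replicate 1, 13 of the 25 lay above control (52%, beside 10.9% of all genes) with a median of 0.349, and without any other liver 0 to 2 did, with medians from 0.0744 to 0.333. The misaligned livers were unlike each other. Sqle, the squalene epoxidase, had 16.5, 64.5 and 63.9 CPM in misaligned livers, against 15.3, 37.6 and 27.8 CPM in control livers. Mvd, the mevalonate diphosphate decarboxylase, had 7.18, 31.2 and 40.1 CPM in misaligned livers, against 7.52, 11.7 and 19.0 CPM in control livers. In both genes misaligned replicate 1, the liver with high acute phase genes, lay at the level of control replicate 1, and misaligned replicates 2 and 3 were above every control.

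Immediate early genes, which respond to stimuli within minutes, had a median of 0.235 in females and -1.02 in males. The female median ran from 0.117 without control replicate 2 to 0.5 without control replicate 3, and it was 0.136 without misaligned replicate 1. Fos had 18.5, 11.3 and 3.68 CPM in misaligned livers, against 4.45, 2.72 and 5.81 CPM in control livers. Fosb had 7.27, 3.57 and 1.20 CPM in misaligned livers, against 1.11, 0.49 and 1.52 CPM in control livers. Misaligned replicate 3 was within the control range for both.

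Plekhd1, a gene listed because the whole series pointed to it, had 1.30, 6.00 and 3.04 CPM in misaligned livers, against 0, 0.25 and 0.59 CPM in control livers. In control females at 00:00 it had 11.8, 3.73 and 1.20 CPM.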
